A study of Mus musculus with 4 samples.

Results

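The genes described here encode the receptors for the cytokines of a blood-forming culture, with related receptor chains and ligands, in lymphatic endothelial cells of mouse embryos. They were chosen by symbol as 9 genes of the 23337 in the count tables, by a rule that names genes and no measured value, though earlier results of these data were known. The set holds 7 receptor genes and the genes of 2 ligands, Kitl and Flt3l, so it is wider than the receptors alone. The 4 groups, of 1 library each, were wild type cells before culture, homozygous deletion mutant cells before culture, wild type cells after culture and mutant cells after culture. Per the labels' protocols, whole litters at embryonic day 14.5 were pooled for each genotype, and CD45-negative cells with LYVE1 and VE-cadherin were sorted from the dorsal anterior part of the embryos. The cultured share of each sort spent 7 days on OP9 feeder cells, a mouse stromal line that supports blood formation, with FLT3L, IL3 and SCF at 100 ng/ml each. It was then sorted for LYVE1 and VE-cadherin, and the labels state no CD45 exclusion at that step. The series title names an enhancer bound by GATA2, and the labels give neither the position of the deletion nor the number of embryos. The feeder cells and the cytokines were common to both genotypes after culture, and no group had culture without cytokines.

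Interleukin 3 (IL3), GM-CSF and interleukin 5 bind receptors made of a cytokine-specific alpha chain and a shared signalling beta chain. Mice carry a pair of beta chain genes, Csf2rb for the beta common chain and Csf2rb2 for a chain used by IL3 alone. These receptors have no kinase of their own and signal through JAK2 and STAT5. Stem cell factor (SCF, from Kitl) and FLT3 ligand (from Flt3l) bind KIT and FLT3, receptor tyrosine kinases of class III that act in blood stem and progenitor cells. KIT is also carried by mast cells, which depend on SCF.

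The libraries held 1694669 to 7943587 gene counts. A level is given as CPM (counts scaled to a common library size by TMM, the trimmed mean of M values), with an exact Poisson 95% interval, and a fold is the ratio of the levels in a pair of libraries. With 1 library per group there is no replicate check and no p-value, and intervals cover counting error only. All 16 pan-endothelial marker genes stood above 2 times the background in each library, and so did at least 8 of 10 lymphatic markers. Ccl21a was at 0 in all 4 libraries, and Pdpn was at 0 in cultured wild type cells. Of 9 measured lymphatic markers, the log2 culture fold was below 0 for 5 and above 0 for 4 in each genotype. The medians were -0.92 in wild type and -0.93 in mutant cells. The lymphatic sum was 7910 and 7544 CPM before culture (wild type, mutant) and 8747 and 7448 CPM after it. Background was read from 1430 olfactory and vomeronasal receptor genes, which held 6.64 and 8.34 counts per kb before culture (wild type, mutant) and 0.537 and 1.61 after culture. A rate this high before culture made up a large part of the counts of several genes below. The summed pan-endothelial markers went from 4745 and 5103 CPM before culture to 15542 and 14333 CPM after it. Scaling to that sum instead of all genes moved every log2 culture fold by -1.71 in wild type and -1.49 in mutant cells, and each culture fold below is read relative to this shift. In such bulk libraries, fewer cells of a type and less RNA per cell cannot be told apart.

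Culture separated the genes far more than genotype did. Csf2rb2, Csf2rb and Kitl were past 2-fold higher after culture in both genotypes, meaning that the whole interval of the fold lay above 2. In wild type cells Flt3l was past 2-fold as well. In wild type cells that made 4 of 9 genes higher and 0 lower, where 8.17% of all measured genes were higher and 5.77% lower. In mutant cells 3 of 9 were higher and 0 lower, beside 5.19% higher and 3.62% lower of all measured genes. With pan-endothelial scaling the counts were 2 higher and 4 lower in wild type and 2 higher and 3 lower in mutant cells. The median log2 culture fold of the 9 genes was 1.29 in wild type and 0.98 in mutant cells, against -0.05 and -0.09 over all measured genes. Between genotypes, 0 of 9 genes were past 2-fold before culture, where 0.0158% of genes were higher and 0.0475% lower in the mutant library. After culture 0 of 7 measured genes were past 2-fold, beside 0.244% higher and 0.0731% lower of all genes. Csf2ra and Il5ra had fewer than 20 counts in both cultured libraries and were not measured in this comparison. Taking the fold itself without its interval, 1 gene (Flt3l) was past 2-fold higher in mutant cells before culture and 1 (Flt3l) lower after it, beside 0.866% and 0.666% of all genes. By that looser rule Il5ra was lower with culture in wild type cells (31.7% of all genes), and 5 of 9 genes were higher with culture in each genotype (15.8% of all genes in wild type, 9.03% in mutant cells).

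**Figure D1:**
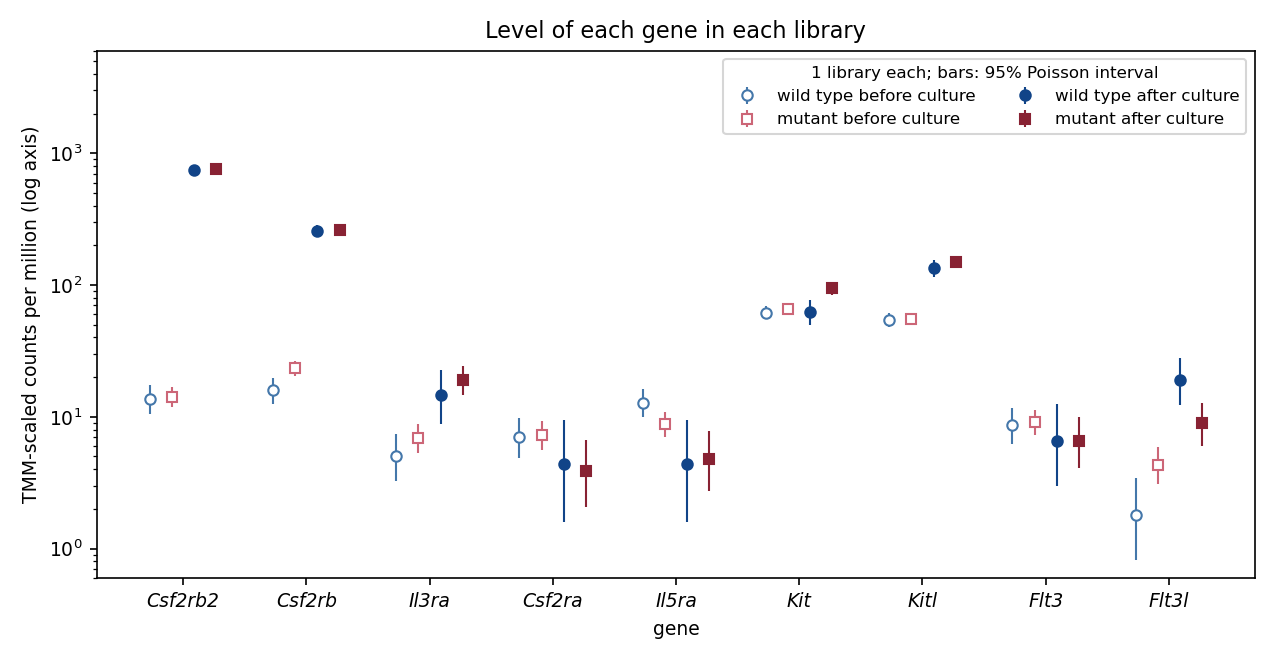
Level of each gene in each of the 4 libraries, as TMM-scaled CPM on a log axis, with 95% Poisson intervals. Csf2rb2 and Csf2rb reached 752 and 259 CPM in wild type cells after culture, and Kit lay between 61.6 and 94.8 CPM in all 4 libraries.

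Csf2rb2 and Csf2rb lie back to back on chromosome 15. In mm10, Csf2rb2 (ENSMUSG00000071714) spans 78282507 to 78305721 on the minus strand and Csf2rb (ENSMUSG00000071713) spans 78325752 to 78353847 on the plus strand. Their coding sequences, 2634 and 2688 nt in GENCODE, were identical at 95.2% of 2628 aligned positions. The longest identical run was 242 nt, coding bases 2083 to 2324 of both genes. Of all 75-nt windows, the read length, 15.8% in Csf2rb and 16.1% in Csf2rb2 coding sequence also occurred in the other gene. Over whole transcripts the shares were 10.7% and 11.1%. A read pair with both reads in such windows cannot be placed by sequence. How the authors counted such pairs is not given in the sources used here, so the split between the genes is uncertain to that extent. The 150 bases where the genes differed most, at 25 positions, are shown because they illustrate what can tell the copies apart. They are coding bases 300 to 449 of Csf2rb and 303 to 452 of Csf2rb2, 5′ to 3′, and capitals mark the differing positions.
Csf2rb: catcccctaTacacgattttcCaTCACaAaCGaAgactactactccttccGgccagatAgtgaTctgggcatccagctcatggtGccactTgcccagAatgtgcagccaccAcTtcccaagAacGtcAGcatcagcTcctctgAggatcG
Csf2rb2: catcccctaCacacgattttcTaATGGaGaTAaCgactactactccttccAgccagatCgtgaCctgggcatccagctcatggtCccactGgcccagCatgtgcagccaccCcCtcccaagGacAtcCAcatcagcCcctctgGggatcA

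Csf2rb2, the IL3-specific beta chain, showed the widest range of the 9 genes. Before culture it had 68 counts in wild type and 130 in mutant cells, and after culture 1033 and 2520. Listed that way, its level was 13.6, 14.1, 752 and 754 CPM. The cultured libraries were both far above the libraries before culture, and within each pair the genotypes overlapped. The culture fold was 55.1 in wild type cells (43.1 to 71.5) and 53.4 in mutant cells (44.8 to 64.2). The mutant to wild type fold was 1.03 before culture (0.765 to 1.41) and 1.003 after it (0.932 to 1.08). Background accounted for 46.3% and 30.4% of its counts before culture (wild type, mutant) and for 0.246% and 0.303% after culture. With background subtracted the culture folds were 77.0 and 67.1, and with pan-endothelial scaling they were 16.8 and 19.0. Set against 100 counts of Cdh5, which encodes VE-cadherin, Csf2rb2 had 1.36 and 1.32 counts before culture and 30.3 and 33.0 after it.

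Csf2rb, the beta common chain, also rose in both genotypes. Its counts were 79 and 215 before culture (wild type, mutant) and 356 and 876 after culture, or 15.9, 23.3, 259 and 262 CPM. The culture fold was 16.3 in wild type cells (12.8 to 21.1) and 11.2 in mutant cells (9.66 to 13.1). Pan-endothelial scaling gave 4.99 and 3.997. Before culture the mutant library stood 1.47-fold above the wild type library (1.13 to 1.93), without the whole interval passing 2-fold, and after culture the fold was 1.01 (0.893 to 1.15). The ratio of these genotype folds, after over before, was 0.687 (0.516 to 0.914). Background made up 41.3% of the wild type and 19.1% of the mutant count before culture, and 0.743% and 0.905% after culture. The genotype fold before culture was 1.81 with that background subtracted (1.20 to 2.74). It was 2.35 with background taken over all annotated exons, which come to 7277 nt for Csf2rb against the 4923 nt otherwise used.

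The balance between the beta chains shifted with culture and needs no scaling between libraries. Before culture Csf2rb2 took 46.3% of the summed counts of both genes in wild type (exact binomial 95% interval 38.0 to 54.7) and 37.7% in mutant cells (32.5 to 43.0). After culture its share was 74.4% in wild type (72.0 to 76.6) and 74.2% in mutant cells (72.7 to 75.7). The cultured shares overlapped each other and lay above both shares before culture. Per kb of exon, the ratio of Csf2rb2 to Csf2rb went from 0.894 and 0.628 before culture to 3.01 and 2.99 after it. With background subtracted the shares were 44.1%, 34.2%, 74.5% and 74.3% in the order above.

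**Figure D2:**
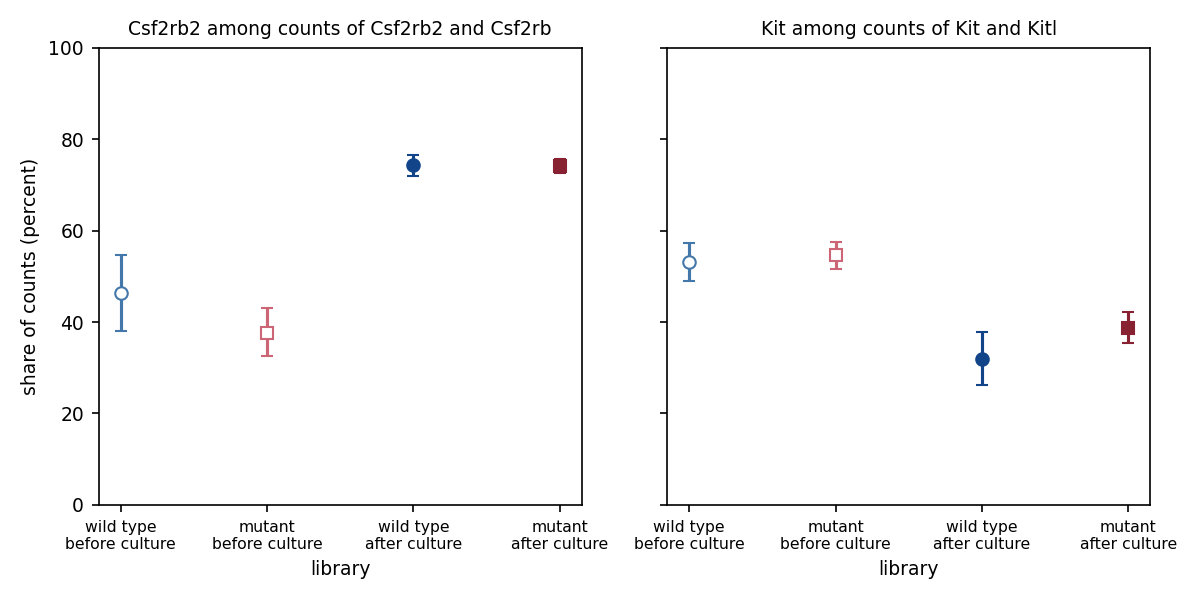
Share of Csf2rb2 in the counts of Csf2rb2 and Csf2rb, and share of Kit in the counts of Kit and Kitl, in percent per library with exact binomial 95% intervals. The Csf2rb2 share was 46.3% and 37.7% before culture and 74.4% and 74.2% after it, while the Kit share went from 53.1% and 54.6% to 31.9% and 38.8%.

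The region around the start of Csf2rb2 is shown because this gene moved most. RefSeq promoter windows on GRCm38.p6, which reach from upstream of a gene's start into its first transcribed bases, were found for 8 of the 9 genes. Both strands were searched for GATA motifs (AGATAA or TGATAA or AGATAG or TGATAG), a RUNX motif (TGTGGT), ETS motifs (AGGAAG or CGGAAG) and a STAT motif (TTCNNNGAA). The window of Csf2rb2, chr15:78305672-78305971 on the minus strand, is given 5′ to 3′ with all motif matches in capitals.
Csf2rb2 promoter: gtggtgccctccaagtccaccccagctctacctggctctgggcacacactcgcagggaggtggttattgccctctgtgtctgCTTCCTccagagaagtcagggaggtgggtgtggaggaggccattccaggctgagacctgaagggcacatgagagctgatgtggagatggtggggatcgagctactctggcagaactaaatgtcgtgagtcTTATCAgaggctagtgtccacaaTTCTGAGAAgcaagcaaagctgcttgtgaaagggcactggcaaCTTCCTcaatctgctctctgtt
Counting the first transcribed base as 0, a GATA match (TTATCA on the gene's strand) lay at -38 to -33, a STAT match (TTCTGAGAA) at -15 to -7, and ETS matches (CTTCCT) began at -168 and 28. Of all 32851 windows, 29.8% held a GATA match, 8.30% a STAT match, 46.5% an ETS match and 16.8% a RUNX match. GATA matches were also present in the windows of Il3ra (CTATCT at -147 to -142) and Il5ra (AGATAA at -74 to -69). The windows of Kit, Kitl, Csf2ra, Flt3l and Il3ra held ETS matches. Flt3 had no match to any of these letters, and none of the 8 genes had a RUNX match in the window. These are letter matches only, and binding was not measured.

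Genes near the beta chain pair, picked after the values were seen, were at few counts. Ncf4, a subunit of the phagocyte oxidase, had 30 and 66 counts before culture (wild type, mutant) and 4 and 17 after it, with culture folds of 0.483 (0.124 to 1.37) and 0.710 (0.390 to 1.22). On the other side, 1700061J05Rik, the gene next to Csf2rb, had 42 and 95 counts before culture and 6 and 13 after it, with folds of 0.518 (0.1799 to 1.22) and 0.377 (0.194 to 0.676). Beyond it, Tst, a sulfurtransferase, had 10, 17, 16 and 10 counts, with folds of 5.80 in wild type (2.47 to 14.3) and 1.62 in mutant cells (0.663 to 3.75), all below the minimum of 20 counts for a call.

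By CPM, which takes no account of gene length, the alpha chains stayed at low levels in all libraries. Per kb of exon, Il3ra reached 9.01 in wild type and 11.9 in mutant cells after culture, beside 11.9 and 18.0 for Kit. Il3ra (ENSMUSG00000068758, chromosome 14, 14346275 to 14356011, plus strand) encodes the chain that makes the receptor specific for IL3. It had 25 and 64 counts before culture (wild type, mutant) and 20 and 64 after it. Its level was 5.02, 6.95, 14.6 and 19.1 CPM, higher in both cultured libraries. The culture folds of 2.90 in wild type (1.53 to 5.44) and 2.76 in mutant cells (1.92 to 3.96) did not pass 2-fold with their whole interval, and pan-endothelial scaling turned them to 0.885 and 0.981. With background taken over all annotated exons they were 8.96 and 3.48, and the genotype fold before culture was 3.46 against 1.38 with no background subtracted. Background was 42.8% and 21.0% of the count before culture and 4.33% and 4.06% after it. An annotated antisense gene, Gm48860, overlaps Il3ra and is no row of the tables, and the strand setting of the counting is not given in the sources used here.

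Per kb of exon, the summed beta chain genes stood at 1.96 times Il3ra in wild type and 1.79 times in mutant cells before culture. After culture the ratio was 23.4 and 17.9. This ratio is formed within a library and does not depend on the scaling.

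Csf2ra and Il5ra, the alpha chains for GM-CSF and interleukin 5, whose ligands were not added, were not past 2-fold in any comparison with TMM scaling. Csf2ra (ENSMUSG00000059326, chromosome 19, 61223957 to 61228429, minus strand) had 35 and 67 counts before culture and 6 and 13 after it, or 7.02, 7.27, 4.37 and 3.89 CPM. Its culture fold was 0.621 in wild type (0.214 to 1.49) and 0.535 in mutant cells (0.271 to 0.977). Il5ra (ENSMUSG00000005364, chromosome 6, 106710357 to 106749037, minus strand) had 64 and 81 counts before culture and 6 and 16 after it, or 12.8, 8.79, 4.37 and 4.78 CPM. Its culture fold was 0.340 (0.120 to 0.781) in wild type and 0.544 (0.297 to 0.938) in mutant cells, and its genotype fold before culture was 0.685 (0.487 to 0.965). Pan-endothelial scaling put both genes past 2-fold lower with culture, at 0.190 in both genotypes for Csf2ra and at 0.104 and 0.194 for Il5ra. Background was 35.1% and 23.0% of the Csf2ra count before culture and 16.5% and 22.9% after it. For Il5ra it was 32.0% to 37.1% in all 4 libraries. After culture, 7.97% of the sensory receptor genes had at least as many counts per kb as Il5ra in mutant cells and 11.6% in wild type cells.

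**Figure D3:**
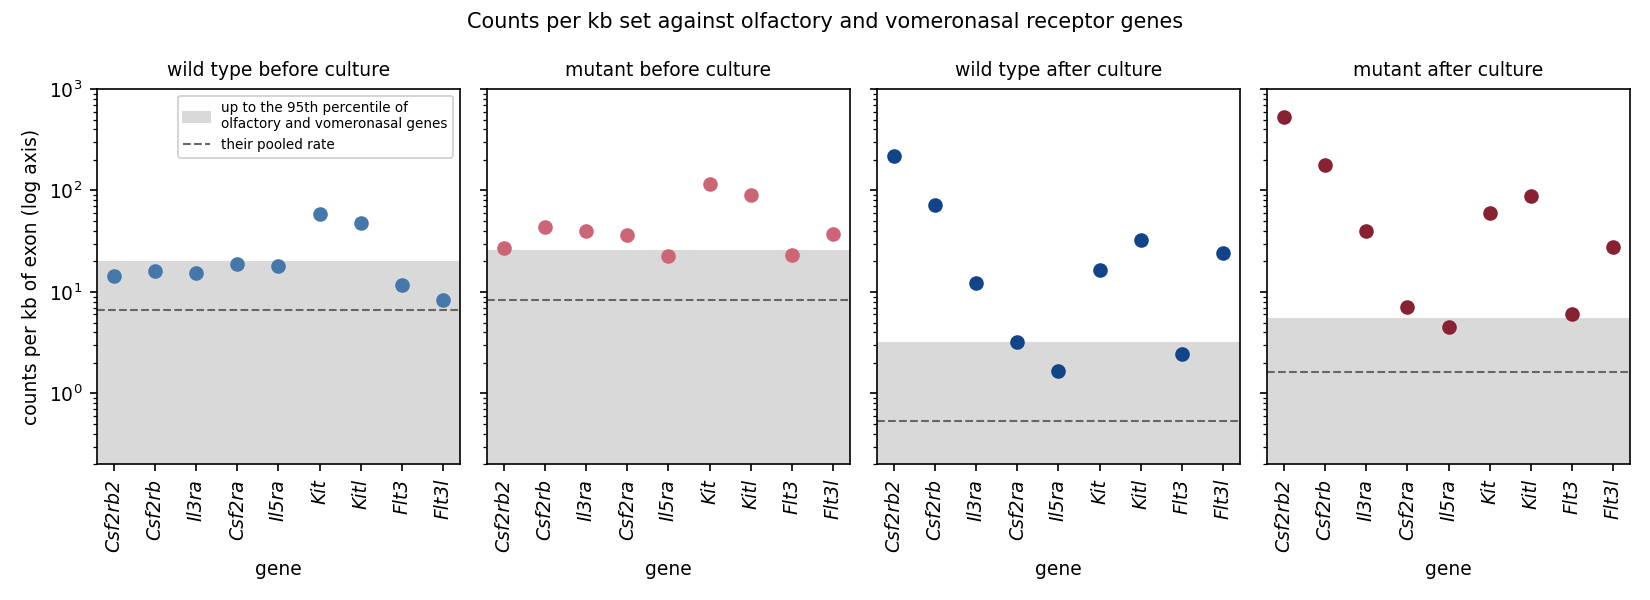
Counts per kb of exon of each gene in each library on a log axis, with the pooled rate of the 1430 olfactory and vomeronasal receptor genes (dashed) and the range up to their 95th percentile (grey). In the wild type library before culture only Kit and Kitl lay above the grey range. In the mutant library before culture all genes but Flt3 and Il5ra lay above it. After culture Csf2rb2, Csf2rb, Kitl, Kit, Flt3l and Il3ra lay above it in both genotypes. Csf2ra was then just above it (3.24 against 3.12 counts per kb in wild type, 7.03 against 5.46 in mutant cells). Flt3 was inside it in wild type and just above it in mutant cells, and Il5ra was inside it in both.

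Kit encodes the SCF receptor, and it had the highest level per kb of the 9 genes before culture in both genotypes. The gene (ENSMUSG00000005672) spans 75574916 to 75656722 on the plus strand of chromosome 5. Kit had 307 and 608 counts before culture (wild type, mutant) and 86 and 317 after it, or 61.6, 66.0, 62.6 and 94.8 CPM. The mutant library after culture was the highest, and the intervals of the other three overlapped. The mutant to wild type fold was 1.07 before culture (0.932 to 1.23) and 1.52 after it (1.19 to 1.95), which is not past 2-fold. Dividing the fold after culture by that before it gave 1.41 (1.07 to 1.86) and 1.58 with background subtracted (1.19 to 2.12). The culture fold was 1.02 in wild type (0.790 to 1.29) and 1.44 in mutant cells (1.25 to 1.65), and 0.310 and 0.511 with pan-endothelial scaling. Per 100 counts of Cdh5, Kit had 6.14 and 6.19 counts before culture and 2.53 and 4.15 after it.

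Mast cell genes were read beside Kit. Their list of 12, with Cpa3 (mast cell carboxypeptidase) as its leading gene, summed to 84.7 and 105 CPM before culture and to 136 CPM in wild type and 26.6 CPM in mutant cells after it. Of the list, Mcpt8 and Ms4a2 were at 0 in cultured wild type cells, and none was at 0 in the other libraries. Most of its measured genes did not share the higher sum of cultured wild type cells. The log2 culture fold was below 0 for 4 of 7 in wild type and 8 of 8 in mutant cells. The medians were -0.20 and -1.47. Cpa3 itself had 72, 239, 68 and 5 counts, so the cultured library with the higher Kit level had the lower level of this list. The pan-leukocyte list of 12, led by Lcp1, Arhgdib and Hcls1, summed to 217 and 212 CPM before culture and 392 and 404 CPM after it. Coro1a and Cd52 were at 0 in cultured wild type cells. Most measured genes of this list went the other way from its sum. The log2 culture fold was below 0 for 5 of 8 in wild type and 6 of 9 in mutant cells, with medians of -0.62 and -0.51. Ptprc, which encodes CD45, had 91 and 118 counts before culture and 6 and 26 after it. The part of these cells in the levels of the receptor genes was not tested.

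Markers of other blood cells were low next to the 4745 to 15542 CPM of the endothelial list. Which cells of a library carried these transcripts was not tested. The macrophage list, led by Mrc1, Mertk and Csf1r, summed to 299 to 397 CPM over the 4 libraries, with C1qa at 0 in cultured wild type cells. Most of its measured genes had a log2 culture fold below 0, 7 of 9 in wild type and 8 of 10 in mutant cells. The neutrophil list, led by Csf3r, Ltf and Mpo, fell within 34.1 to 64.2 CPM, and the erythroid list, led by Tfrc, within 87.3 to 139.7 CPM, with no gene at 0. Measured neutrophil genes with a log2 culture fold below 0 were 4 of 6 in wild type and 7 of 7 in mutant cells. For erythroid genes they were 6 of 7 and 6 of 8. The dendritic list, which includes Flt3, was 84.5 and 74.6 CPM before culture and 167 and 207 CPM after it, led by Zbtb46, Clec9a and Itgax. Most of its measured genes did not share that rise. The log2 culture fold was below 0 for 5 of 7 in wild type and 5 of 8 in mutant cells. The megakaryocyte list, led by Itga2b, was 45.4 and 42.0 CPM before and 193 CPM in both genotypes after culture. Gp1bb, Gp9, Pf4 and Gp6 were at 0 in cultured wild type and Ppbp at 0 in cultured mutant cells. Of its measured genes, 2 of 5 in wild type and 5 of 7 in mutant cells had a log2 culture fold below 0. The list of blood progenitors and haemogenic endothelium, which includes Kit, was 599 and 678 CPM before and 764 and 782 CPM after culture, led by Lmo2, Gata2 and Cd34. Here 10 of 17 measured genes in wild type and 10 of 18 in mutant cells had a log2 culture fold below 0. Skeletal muscle genes, led by Ttn, went from 449 and 512 CPM to 129.5 and 181 CPM, with Myog at 0 in cultured wild type and Acta1 at 0 in cultured mutant cells.

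Kitl encodes SCF, the ligand that was also added to the medium. The gene (ENSMUSG00000019966) spans 100015630 to 100100416 on the plus strand of chromosome 10. It had 271 and 506 counts before culture and 184 and 501 after it, or 54.4, 54.9, 134 and 149.8 CPM. Both cultured libraries were above both libraries before culture. Kitl rose 2.46-fold in wild type (2.03 to 2.98) and 2.73-fold in mutant cells (2.41 to 3.09), but pan-endothelial scaling reversed this to 0.751 and 0.971, and scaling to total gene counts gave 1.60 and 2.001. With background subtracted the wild type fold was 2.12 (1.73 to 2.59) and no longer past 2-fold, and the mutant fold was 2.59 (2.27 to 2.95). Per 100 counts of Cdh5, Kitl held 5.42, 5.15, 5.40 and 6.56 counts, a narrow range. Its genotype fold was 1.01 before culture (0.870 to 1.17) and 1.12 after it (0.943 to 1.33). The adipocyte list of 10 genes, led by Fabp4, Lpl and Pparg, was read because OP9 cells can form fat cells. It went from 108 and 96.2 CPM before culture to 948 and 623 CPM after it, with no gene at 0. In mutant cells 4 of 10 genes had a log2 culture fold below 0, against 0 of 7 measured in wild type cells. After culture 3 of 7 measured genes were past 2-fold lower in mutant than in wild type cells, beside 0.0731% of all genes. The stromal list of 16 went from 3620 and 5706 CPM to 2332 and 2109 CPM, with Lum at 0 in wild type cells after culture. The part of feeder cells in the Kitl level was not tested.

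Within a library, Kit took 53.1% (49.0 to 57.2) of the summed counts of Kit and Kitl in wild type and 54.6% (51.6 to 57.5) in mutant cells before culture. After culture its share was 31.9% (26.3 to 37.8) in wild type and 38.8% (35.4 to 42.2) in mutant cells. The receptor share was thus lower after culture in both genotypes, and the 2 cultured shares had overlapping intervals. Per kb of exon the ratio of Kit to Kitl was 1.22 and 1.29 before culture and 0.503 and 0.680 after it.

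Flt3, the receptor for FLT3 ligand and a gene of early lymphoid and dendritic progenitors, stayed near background. Its place is chromosome 5, 147330741 to 147400489, minus strand (ENSMUSG00000042817), where the antisense gene Gm26597 overlaps it. It had 43 and 84 counts before culture and 9 and 22 after it, or 8.63, 9.12, 6.55 and 6.58 CPM. Background was 56.4% and 36.3% of these counts before culture and 21.8% and 26.8% after it. The culture folds of 0.759 (0.325 to 1.58) and 0.722 (0.430 to 1.17) and the genotype folds of 1.06 (0.723 to 1.56) and 1.01 (0.445 to 2.48) all had intervals that included 1. Pan-endothelial scaling gave culture folds of 0.232 and 0.257, both past 2-fold lower. Background over all annotated exons gave 4.90 for culture in wild type and 5.07 for the genotype before culture, the direction of the former being turned. In both, subtraction left the wild type count before culture below 3, and it was set to 3. The sizes of both folds depend on that set value. At this depth a change below about the width of these intervals was not detectable.

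Flt3l encodes the ligand of FLT3 (ENSMUSG00000110206, chromosome 7, 45129788 to 45136432, minus strand). It had 9 and 40 counts before culture (wild type, mutant) and 26 and 30 after it, or 1.81, 4.34, 18.9 and 8.97 CPM. The wild type library was the lower of the pair before culture and the higher after it. The culture fold was 10.5 in wild type cells (4.76 to 25.4) and 2.07 in mutant cells (1.24 to 3.40). The mutant to wild type fold was 2.40 before culture (1.15 to 5.63) and 0.474 after it (0.271 to 0.835), and the ratio of the second to the first was 0.197 (0.0807 to 0.482). The wild type count before culture was 79.3% background. Subtraction left it below 3, so it was set to 3. With that set value the genotype fold before culture was 4.998 with an interval of 0.676 to 36.9. With background taken over all annotated exons that fold was 1.20, and the culture folds were 20.6 in wild type and 7.14 in mutant cells. The 1.20 and the 20.6 also rest on a wild type count before culture that was set to 3. With pan-endothelial scaling the culture folds were 3.20 and 0.736. A second annotated gene, Gm45713, overlaps Flt3l on the same strand, so its counts are uncertain.

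**Figure D4:**
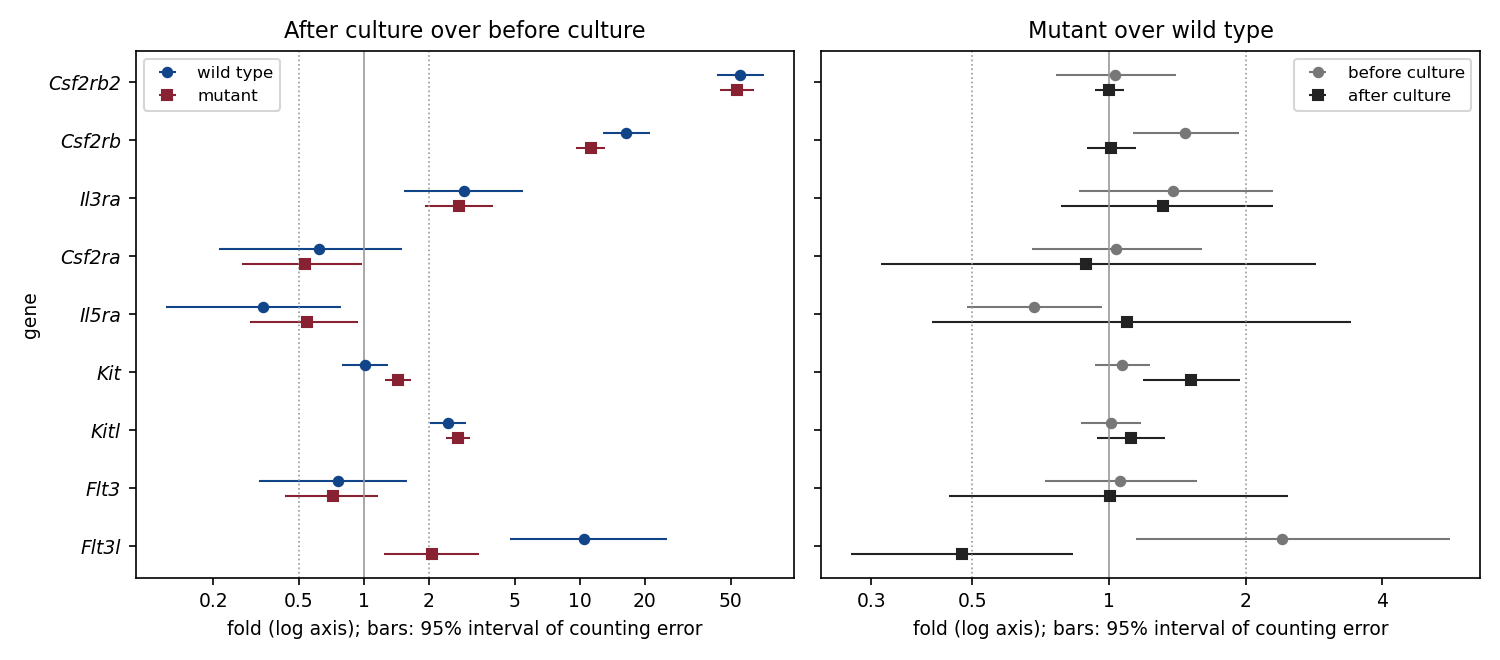
Folds of each gene on log axes with 95% intervals of counting error, after over before culture at left and mutant over wild type at right. Csf2rb2 lay at 55.1 and 53.4 and Csf2rb at 16.3 and 11.2 for culture, and no genotype interval lay wholly beyond the dotted lines at 2-fold.

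Ordered by CPM per kb of exon, Kit (11.7) and Kitl (9.63) led in the wild type library before culture, with overlapping intervals. The other seven lay between 1.68 and 3.80, each overlapping its neighbour. In the mutant library before culture Kit (12.6) exceeded Kitl (9.72) beyond their intervals, and the other seven, from 2.46 to 4.74, again overlapped in sequence. After culture the order began with Csf2rb2 (158.5 in wild type, 159 in mutant cells), then Csf2rb (52.6 and 53.2) and Kitl (23.7 and 26.5). Csf2rb2, Csf2rb and Kitl did not overlap each other in either genotype. In wild type cells Flt3l (17.6), Kit (11.9) and Il3ra (9.01) followed, each overlapping its neighbour. In mutant cells Kit (18.0) was next and was separate from Il3ra (11.9), which overlapped Flt3l (8.34). Csf2ra, Flt3 and Il5ra were last after culture in both genotypes and overlapped each other, at 1.22 to 2.36.

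The genes that act around these receptors were examined in 9 lists, chosen with earlier results of these data known. Outside the 9 genes above they held 126 genes found in the tables. Of these, 23 rose and 5 fell among 120 measured in wild type cells with culture, and 20 rose and 4 fell among 122 in mutant cells. Over all measured genes 8.17% were higher and 5.77% lower in wild type, and 5.19% higher and 3.62% lower in mutant cells, and the counts of each list below stand beside these shares. Total-count scaling changed the counts over the 9 lists to 14 higher and 18 lower in wild type and 12 higher and 13 lower in mutant cells. Pan-endothelial scaling gave 3 higher and 58 lower, and 5 higher and 63 lower. Between genotypes 0 of the 122 measured before culture and 0 of the 101 measured after it were past 2-fold.

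The ligands of the beta chain family were hardly detected. Csf2 (GM-CSF) had 26 and 42 counts before culture and 1 and 9 after it, and Il5 had 15, 11, 4 and 7. The culture folds of Csf2 were 0.139 and 0.590 and those of Il5 0.967 and 1.75 (wild type, mutant), none past 2-fold. Il3 had 7, 8, 0 and 3 counts. The 0 does not show that Il3 was absent from that library, since counting error allows a level above 0.

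Of 15 receptor-proximal kinases and STAT factors, 5 rose and 0 fell in wild type cells and 4 rose and 0 fell in mutant cells. The median log2 culture fold was 0.65 and 0.44. Jak1, a kinase of many class I and class II cytokine receptors, stood at 291 and 306 CPM before culture and 2508 and 2172 CPM after it, a rise of 8.63-fold (8.11 to 9.18) and 7.10-fold (6.80 to 7.42). Stat6, a mediator of interleukin 4 signalling, rose 5.93-fold and 4.97-fold, and Fyn, a Src family kinase, 2.98-fold and 2.79-fold. The Fyn folds became 0.909 and 0.995 with pan-endothelial scaling. Jak2, the kinase bound to the beta chains, had folds of 1.57 (1.34 to 1.85) and 1.65 (1.47 to 1.85), and Stat5b had folds of 0.951 (0.727 to 1.23) and 1.25 (1.07 to 1.45). Neither passed 2-fold, and both are named here outside the rule for naming genes because IL3 receptors signal through them.

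None of the 19 adaptors and signalling enzymes passed 2-fold in either genotype. The leading pair by counts was Ywhaz, a 14-3-3 protein that binds the beta common chain, with culture folds of 1.61 and 1.29, and Plcg1, a phospholipase recruited by KIT, with 1.23 and 1.16. Among 21 negative regulators, 3 rose and 1 fell in each genotype. Socs2, an inhibitor induced by STAT5, rose 8.34-fold in wild type (6.95 to 10.1) and 6.86-fold in mutant cells (6.02 to 7.84). Usp18, an interferon-induced inhibitor, rose 8.20-fold and 7.02-fold. Sh2b3, an adaptor that restrains KIT and JAK2, rose 3.72-fold and 2.52-fold, the latter becoming 0.898 with pan-endothelial scaling. Socs3 fell to 0.335 (0.262 to 0.423) and 0.232 (0.197 to 0.272) of its level before culture.

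The list of STAT5 and other cytokine target genes gave a mixed picture. In wild type cells 6 of 17 measured rose and 1 fell, and in mutant cells 5 of 18 rose and 2 fell. Besides Socs2 and Socs3, which belong to this list too, Bcl2l1, which encodes the survival factor BCL-XL, rose 2.39-fold (2.02 to 2.82) and 2.71-fold (2.41 to 3.05). Ccnd2 (cyclin D2) rose 2.55-fold in wild type cells (2.30 to 2.82) and had a fold of 1.81 in mutant cells. Pan-endothelial scaling turned Bcl2l1 to 0.729 and 0.966 and Ccnd2 in wild type cells to 0.778. Pim1, a serine kinase, fell to 0.392 of its level in mutant cells (0.327 to 0.466), with a fold of 0.807 in wild type cells (0.622 to 1.04). Cish, a feedback inhibitor that responds to STAT5, had folds of 1.29 (0.736 to 2.19) and 1.40 (1.01 to 1.93), and is named here outside the rule for naming genes.

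Among 13 class III receptor tyrosine kinases and ligands, a list that includes Kit, Kitl, Flt3 and Flt3l, 3 rose and 1 fell in wild type and 2 rose and 0 fell in mutant cells. Csf1, the ligand of the receptor CSF1R, rose 5.26-fold in wild type and 3.50-fold in mutant cells. Csf1r fell to 0.210 (0.0826 to 0.445) in wild type cells, with a fold of 0.548 (0.378 to 0.776) in mutant cells. Of 5 proteases listed for release of SCF and FLT3 ligand from the cell surface, 0 passed 2-fold in wild type cells, where Adam10 and Mmp14 had folds of 1.37 and 1.95, and Mmp9 fell to 0.172 (0.0544 to 0.419) in mutant cells.

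Other cytokine receptors moved in both directions. Among class I receptors, 7 of 27 measured rose and 3 fell in wild type cells, and 6 of 28 rose and 1 fell in mutant cells, beside the 8.17% and 5.77% of all genes in wild type and 5.19% and 3.62% in mutant cells. Il6st, the shared chain of the interleukin 6 family, rose 4.98-fold (4.64 to 5.35) and 4.64-fold (4.42 to 4.88). Il4ra rose 4.82-fold and 2.66-fold, and Il2rg, the common gamma chain, 3.26-fold and 2.50-fold. Ghr, the growth hormone receptor, rose 2.79-fold in wild type cells, with 1.57 in mutant cells, and Il27ra rose 3.07-fold in mutant cells. Pan-endothelial scaling turned Ghr to 0.851 in wild type cells, Il2rg to 0.995 and 0.890, and Il4ra in mutant cells to 0.946. The median of this list was -0.22 and -0.10 on the log2 scale (wild type, mutant). Of 10 measured class II receptors, Ifngr2 (6.42-fold and 3.52-fold) and Il10rb (3.88-fold and 3.10-fold) rose in both genotypes.

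Since no pathway gene was past 2-fold between genotypes, the leading genes of each list by counts are given as mutant to wild type folds, before and then after culture where a list kept the same gene. Jak1 had 1.05 and 0.866, and Fyn 1.09 and 1.02. Ywhaz had 1.02 and 0.818, and Plcg1 1.07 and 1.01. Among inhibitors, Grb10, an adaptor that limits receptor tyrosine kinases, had 1.14 and 0.749, Socs3 1.26 before and Socs2 0.842 after culture. Mcl1, a survival factor, had 1.09 and 0.929, and Ccnd2 1.41 and 1.004. Pdgfra had 1.49 before culture and Csf1 0.880 after it. Il6st had 1.0003 and 0.932, Il11ra1 1.24 before and Il2rg 0.779 after culture. Ifnar1 had 1.04 and 0.898, Ifnar2 0.988 before and Ifngr2 0.810 after culture. Adam10 had 1.01 and 0.780, and Mmp14 1.21 and 0.921. Csf2 had 0.874 before and 3.70 after culture, and Il5 0.397 and 0.719. Il5 was under 20 counts in every library and Csf2 in both libraries after culture, so that of these 4 folds only that of Csf2 before culture was measured.

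**Figure D5:**
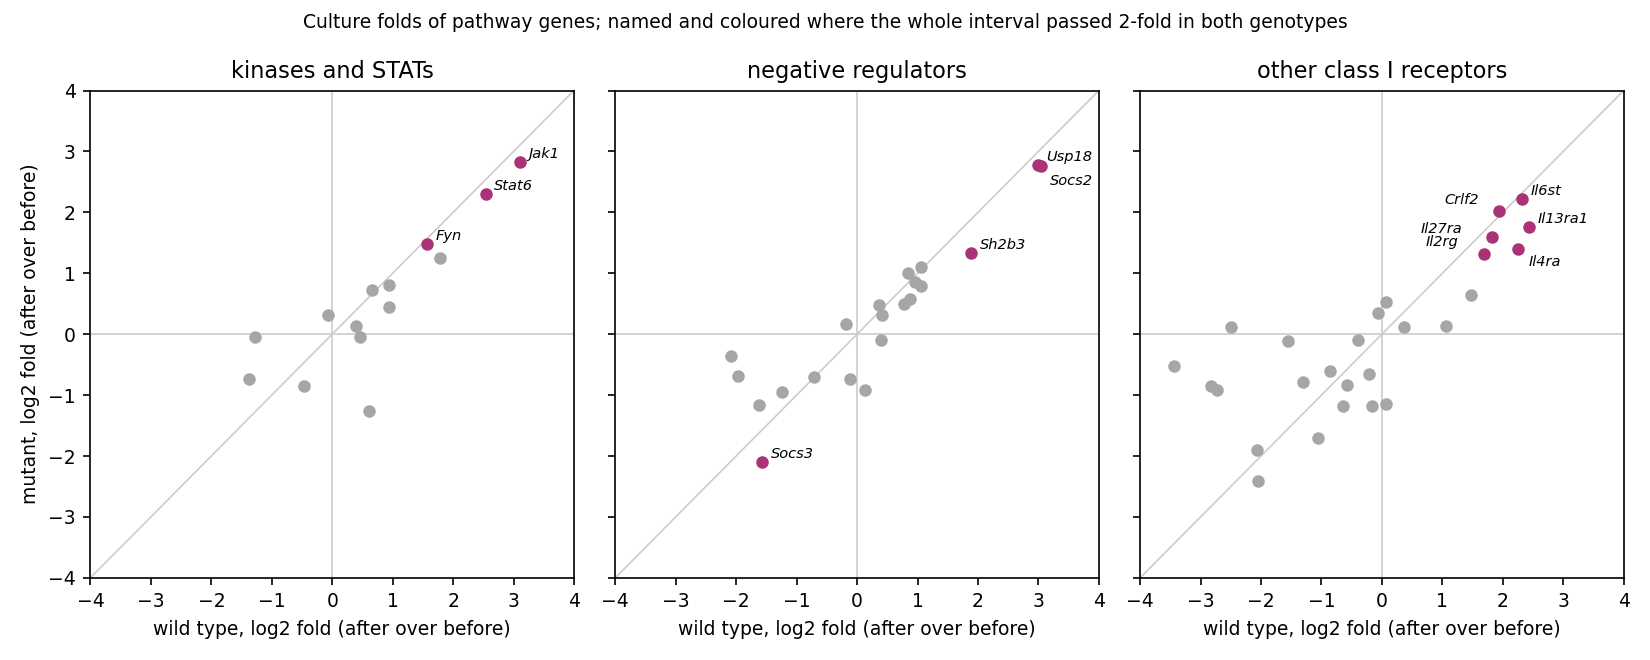
Log2 culture fold (prior count 2) in wild type cells on the x axis and in mutant cells on the y axis for measured genes of 3 lists that are reported here, with the line of equal folds. Named genes passed 2-fold with their whole interval in both genotypes. The libraries before culture and after culture differ between the axes, and Socs3 was the one named gene that fell.

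Genes whose pattern over the 4 libraries was most like that of each receptor were found by the distance between centred log2 levels, among 13430 genes. With 4 libraries, this is a description. Nearest to Csf2rb2 were Oit3 (distance 0.18), Apoe (0.23) and F8 (0.48), and only these 3 lay within 0.5. Oit3 stood at 11.6, 10.5, 550 and 571 CPM, Apoe, an apolipoprotein, at 24.5, 24.5, 1184 and 1083 CPM, and F8, coagulation factor VIII, at 34.7, 25.4, 1208 and 1330 CPM. Nearest to Csf2rb were Smad6 (0.22), Cxcl12 (0.29) and Ptgs1 (0.33), with 17 genes within 0.5. Kit had 2326 genes that near, led by Pak1ip1 (0.01), Rmi1 (0.03) and Zc3h10 (0.04), and Kitl had 1248, led by Mylip (0.03), Hmox2 (0.06) and Myh9 (0.06). Il3ra had 621, led by Tshz3, Stx4a and Klhl26. For Flt3l, 3 genes lay within 0.5, namely Rpph1 (0.39), B3gnt3 (0.43) and S100a6 (0.49). Csf2ra, Il5ra and Flt3 were each within 0.5 of 848 or more genes, led by Klhl30, Ccdc87 and Celsr1 for Csf2ra, Rag1, Opn3 and Chrdl2 for Il5ra, and Slc16a13, Msh3 and Nap1l1 for Flt3.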

How the data were processed

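RNA of 4 libraries, 1 per genotype and culture state, was analysed. The deposited values are whole-number counts of read pairs per gene symbol, made by the authors with bcl2fastq, STAR and HTSeq 0.11.2 on mm10 per the submitters' processing notes. The table names state that duplicates were removed with sambamba. The annotation, strand setting and other versions: not given in the sources used here. The 5 HTSeq summary classes, 66.5%, 53.6%, 20.0% and 30.3% of pairs being in no gene (wild type and mutant before culture, then after), were left out.

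Counts were scaled with TMM in edgeR 4.0.16 (R 4.3.3). Fold intervals are 95% Clopper-Pearson intervals of one library's share of a gene's counts, computed with scipy 1.17.1. A gene was called where the whole interval passed 2-fold, with at least 20 counts in 1 of the libraries compared. No molecular identifiers are stated, so amplified pairs may repeat molecules. Gene lengths used exons of GENCODE vM21 transcripts paired with RefSeq (22576 symbols), or all annotated exons where no transcript was paired. In all, 22856 symbols had a length. The background rate per kb was taken over the coding length of the sensory receptor genes. For folds, a count that fell below 3 after background subtraction was set to 3. Promoter windows are from RefSeq. Protein sequences were not used here, and coding sequences were aligned with Biopython 1.88 in their place. The procedure was tested on simulated data.

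All 9 members are named. From each pathway list up to 4 called genes with the most counts were named per comparison, or 2 where none was called, and 3 nearest genes per member. For 1 list gene no fold is reported here, but it stays in the counts of its list. The members and lists were chosen with earlier results of these data known. Alternatives were DESeq2 1.42.0 size factors, total counts, pan-endothelial scaling, background subtraction, no filter, point estimates and, for patterns, a prior count of 0.5.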

Additional observations from a re-analysis of the deposited data

Results flagged for a closer look

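The genotype fold of Flt3l pointed in opposite directions in the 2 culture states. The mutant library stood at 2.40 times the wild type library before culture and at 0.474 times after culture. Each state has 1 library per genotype, so the difference between the folds was not tested. The wild type count before culture was 9, of which 7.14 were expected from background.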

How the results depend on the processing

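The labels give no replicate numbers, so no fit with a replicate block was made. A fit to all 4 libraries with additive terms was not run, and leaving out a library would empty its group. DESeq2 size factors and no filter on low counts kept each of the 16 counts of genes past 2-fold within 1.5 times. Of the 9 genes, point estimates instead of whole intervals gave 1 higher between genotypes before culture, 1 lower after it, 1 lower with culture in wild type and 5 higher with culture in mutant cells. For the pathway genes they gave 11 higher and 2 lower between genotypes after culture, and 27 and 18 lower with culture (wild type, mutant). Pan-endothelial scaling gave 2 of the 9 genes higher and 4 lower with culture in wild type cells and 3 lower in mutant cells. For the pathway genes it gave 3 higher and 58 lower in wild type and 5 higher and 63 lower in mutant cells, and total counts gave 14 and 18, then 12 and 13. Subtracting background left 2 pathway genes lower in wild type cells, also when taken over all annotated exons, an alternative added after the data were seen, which gave 4 of the 9 genes higher with culture in mutant cells. Pan-endothelial scaling reversed the called folds of Kitl (0.751 in wild type, 0.971 in mutant cells), Fyn (0.909 and 0.995), Bcl2l1 (0.729 and 0.966), Il2rg (0.995 and 0.890), Ccnd2 (0.778) and Ghr (0.851) in wild type, and Sh2b3 (0.898) and Il4ra (0.946) in mutant cells. By its construction this setting shifts every culture fold downward, since the marker sum rose. No called fold of the genes named was reversed by the other settings.

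Depth limits the alpha chains, Flt3 and Flt3l most, where counts of 6 to 84 carry wide intervals. The main background estimate rests on coding exons of silent genes, and the rate in other exons was not measured.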
